A study of Homo sapiens with 6 samples.

Results

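The nuclear genes of respiratory complex I were taken from 2 deposited tables of a ribosome profiling experiment by their symbol, NDUFA, NDUFAB, NDUFB, NDUFC, NDUFS or NDUFV followed by a number. This gave 37 of 10779 gene symbols. Of these, 34 were among the 8121 genes with a translational efficiency, 36 were among the 9570 transcripts with an occupancy, and 33 were in both. NDUFA7 was listed with a translational efficiency only, NDUFA3, NDUFS1 and NDUFS3 were listed with an occupancy only, and NDUFA6 was in neither table. The symbol also takes in NDUFA4, a protein first counted as a complex I subunit and now placed in complex IV.

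Complex I is the entry point of the mitochondrial respiratory chain. It takes electrons from NADH, passes them along a row of iron-sulfur clusters to ubiquinone and pumps protons across the inner mitochondrial membrane. It is L-shaped, with a matrix arm that holds the redox cofactors and a membrane arm that pumps. The core subunits of the matrix arm are encoded in the nucleus and those of the membrane arm in the mitochondrial genome, and the many accessory subunits around them are nuclear, translated in the cytosol and imported.

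HEK293 cells, a human embryonic kidney line, were lysed in cycloheximide at 100 µg/ml, and ribosome-protected fragments (RPFs) and total RNA were sequenced from the same lysates, with 3 libraries of each. All 6 libraries are labelled as control siRNA, so there is no treated group, and the comparisons are between mRNAs. The methods describe a preparation from plates of cells that was repeated to give the 3 replicates, so the p-values below measure the spread between these preparations of a single line, which may be in part technical. Of 5 genes listed as markers of this line, 4 (VIM, NEFM, NEFL and CDH2) were in both tables and PAX2 was in neither, and none of PTPRC, CD3E, ALB, HBB and INS, markers of blood, liver and pancreas, was listed. The core subunits encoded in mitochondrial DNA were not listed in either table.

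A sequence that some of these mRNAs share lies at the start codon. The TISU element (translation initiator of short 5′UTR) has a core that contains the AUG. A single form of this core was searched, the 11 letters that are the capitals in the sequences shown here. Other forms were not searched. The search was on the mRNA strand only, at the annotated AUG of transcripts of GENCODE 44 lifted to GRCh37. This form stood there in 3 of the 36 complex I transcripts (8.33%) and in 126 of 9137 matched transcripts (1.38%). The sequences of NDUFA9 and NDUFS4, accessory subunits of the matrix arm, are shown from 5′ to 3′ as DNA. The windows lie at chr12:4758284-4758304 in exon 1 of 11 and chr5:52856484-52856504 in exon 1 of 5, both on the plus strand, and each spans the end of the 5′UTR and the beginning of the CDS.
NDUFA9: tgggaaAAGATGGCGGCtgcc
NDUFS4: tgcagcAAGATGGCGGCggtg
A purine stood 3 bases before the AUG in 33 of 35 complex I transcripts with a base there (94.3%) and in 86.0% of all. A G followed the AUG in 54.3% and 53.2%. The 5′UTRs of the complex I transcripts in the deposited table were short, with a median of 27.5 codons against 56.0 over all transcripts, and 13 of 36 had 20 codons or fewer, against 14.1% of all. These shares describe the sequences and were not tested.

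Translational efficiency is the deposited ratio of RPFs to total RNA of an mRNA. Its median over all 8121 genes was 0.382, 0.380 and 0.388 in the 3 replicates. Over the 34 complex I genes the median of the means was 1.02, which is 2.66 times the median of all genes (0.385). Each gene was compared with the median of all genes by limma on log2(value + 0.01). By this test 26 of the 34 were higher (76.5%) and 5 were lower (14.7%), and 3 did not pass the threshold. Over all genes 44.7% were called higher and 44.6% lower (89.3% in either direction), and the difference of the complex I genes from this background was not tested. The replicates lay close together, with a median standard deviation of 0.07 on the log2 scale within complex I genes and 0.10 within all genes. Between complex I genes the standard deviation was 1.86, or 1.67 without NDUFA4, and it was 1.56 between all genes. The difference between these spreads was not tested.

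**Figure D1:**
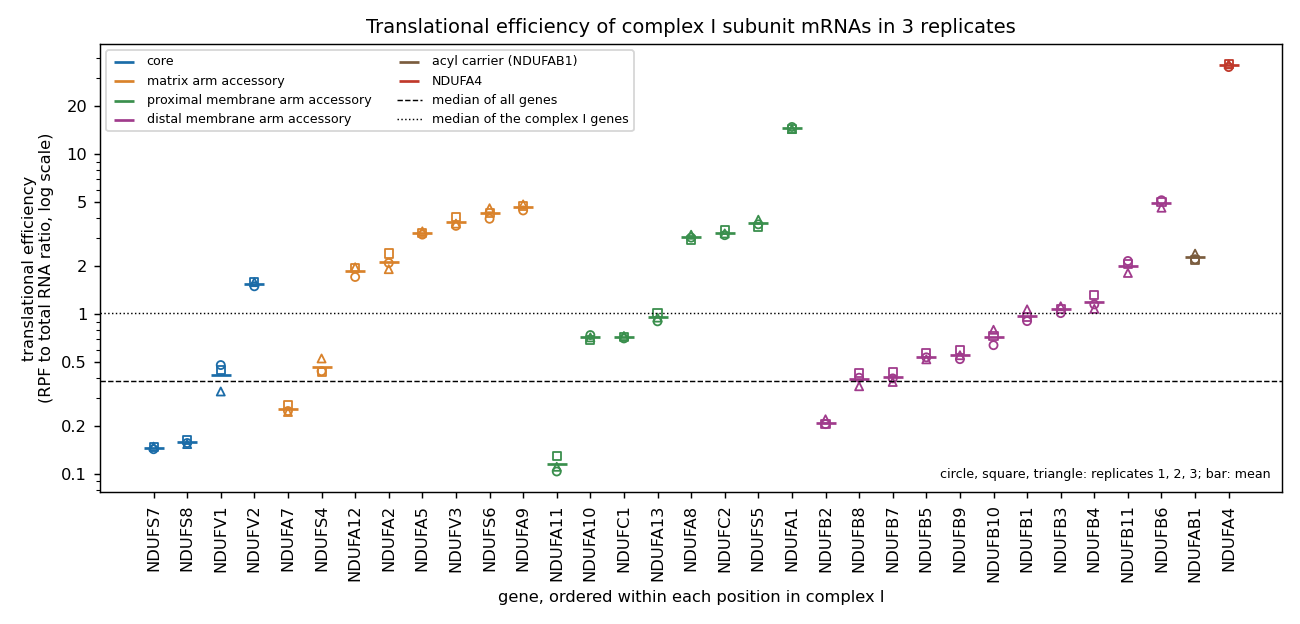
Translational efficiency (RPF to total RNA ratio, log axis) of 33 complex I genes in replicates 1, 2 and 3 (open symbols) with the mean as a bar, grouped by position in the complex. The means run from 0.115 for NDUFA11 to 36.0 for NDUFA4, and the dashed and dotted lines mark the medians of all genes (0.385) and of the complex I genes (1.02).

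Of the 7 nuclear core subunits, 5 had a translational efficiency, with a median of 0.420. NDUFV1, which binds the flavin and NADH, had values of 0.481, 0.449 and 0.329. Replicate 3 was the low value, and the mean of 0.420 was 0.11 ± 0.12 (SE) above the median of all genes on the log2 scale (limma adjusted p = 0.406, n = 3). Without replicate 3 it was called higher, by 0.28 (limma adjusted p = 0.0212). NDUFV2, its partner with an iron-sulfur cluster, had 1.49, 1.59 and 1.59, which was 1.99 ± 0.05 higher on the log2 scale (limma adjusted p = 2.86e-06). NDUFS7, which carries the last iron-sulfur cluster before ubiquinone, had 0.143, 0.148 and 0.149, and NDUFS8, which carries a pair of clusters, had 0.157, 0.164 and 0.154. NDUFS7 was lower than the median of all genes (log2 difference -1.33 ± 0.05, limma adjusted p = 7.59e-06), and so was NDUFS8 (-1.23 ± 0.05, limma adjusted p = 1.08e-05). The replicates of NDUFV2 all lay above those of NDUFS7 and NDUFS8, so core subunits of the same arm differed by far more than the spread between replicates.

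Among the accessory subunits of the matrix arm, 7 of the 8 listed were higher than the median of all genes and 1 was lower, with a median of 2.68. NDUFA9, a relative of short-chain dehydrogenases that binds NADPH, had the highest value of the arm, with 4.45, 4.74 and 4.86. It was 3.58 ± 0.05 above the median of all genes on the log2 scale (limma adjusted p = 1.18e-06). NDUFS6, which binds zinc, had 3.95, 4.31 and 4.60, and NDUFV3, a small subunit beside NDUFV1, had 3.57, 4.06 and 3.69. NDUFA7 was the member of the arm that was lower, with 0.248, 0.270 and 0.245 (log2 difference -0.57 ± 0.05, limma adjusted p = 2.66e-04). NDUFS4 had 0.440, 0.433 and 0.529. Its difference of 0.27 ± 0.07 passed the threshold (limma adjusted p = 0.0181) but was 0.19 without replicate 3 (limma adjusted p = 0.0599), 0.14 with only genes of a mean of at least 0.1 (limma adjusted p = 0.139) and 0.11 against the mean of all values (limma adjusted p = 0.222). The 2 carriers of the TISU core shown above, NDUFA9 and NDUFS4, therefore had mean translational efficiencies of 4.68 and 0.468, and their replicates did not overlap.

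Among the accessory subunits of the proximal membrane arm, 7 of 8 were higher and 1 was lower, with a median of 1.99. The arm held the highest and the lowest subunit once NDUFA4 is set aside. NDUFA1, a short protein with a single membrane helix, had 14.8, 14.4 and 14.4, and NDUFA11, a membrane protein of the family of the import channel subunit TIMM17, had 0.104, 0.130 and 0.111. NDUFA1 was 5.21 ± 0.05 above the median of all genes on the log2 scale (limma adjusted p = 8.99e-07). NDUFA11 was below it (log2 difference -1.66 ± 0.07, limma adjusted p = 1.52e-05). The means differed 126-fold. Between these ends lay NDUFS5 with a mean of 3.69, NDUFC2 with 3.22, NDUFA8 with 3.02, NDUFA13 (also known as GRIM-19) with 0.959, NDUFC1 with 0.721 and NDUFA10, a relative of nucleoside kinases, with 0.717.

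The distal membrane arm had the lowest median of the accessory groups, 0.724, with 8 of 11 genes higher, 1 lower and 2 not called. NDUFB6 was its highest, with 5.16, 5.01 and 4.63 (log2 difference 3.65 ± 0.06, limma adjusted p = 1.26e-06). NDUFB2 was its lowest, with 0.205, 0.205 and 0.220 (log2 difference -0.84 ± 0.05, limma adjusted p = 4.92e-05). NDUFB7 had 0.397, 0.437 and 0.377 (limma adjusted p = 0.319), and NDUFB8 had 0.401, 0.430 and 0.355 (limma adjusted p = 0.616), so both lay across the median of all genes. The subunits of the intermembrane space with a pair of CX9C motifs, which are imported by the MIA40 disulfide relay, had means of 3.69 (NDUFS5), 3.02 (NDUFA8), 0.724 (NDUFB10) and 0.404 (NDUFB7). The first pair was called higher and the second pair lower than the median of the complex I genes, which is described next.

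NDUFAB1, the mitochondrial acyl carrier protein, which sits at 2 places in the complex and also serves fatty acid synthesis, had 2.21, 2.20 and 2.39. NDUFA4 stood far above all of them, with 35.1, 36.5 and 36.5, and its log2 difference of 6.52 ± 0.05 (limma adjusted p = 7.59e-07) was the largest of the complex I genes. Its mean was 313 times that of NDUFA11. The NDUFA4 gene lies at chr7:10971570-10979780 on the minus strand (GRCh37), and 58.5% of the stretches of 30 nt in its CDS also occur in 13 other genes, among them the pseudogene NDUFA4P1. How much of its ratio comes from the treatment of reads that fit several genes was not tested. NDUFA1, at chrX:119005795-119010625 on the plus strand, shared 0.0% of its CDS with other genes.

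When the genes were set against the median of the complex I genes in place of all genes, 15 were higher, 15 were lower and 4 did not pass the threshold. This reference is the median of the same genes, so a nearly even split is built in and is no result about them. A lower call was lost with the replicate block, without replicate 2 and without replicate 3. Over all genes 16.2% were called higher and 77.8% lower than this reference (94.1% in either direction). The 4 were NDUFA13, NDUFB1, NDUFB3 and NDUFB4, with limma adjusted p of 0.0838, 0.198, 0.578 and 0.0684. In the order of mean efficiencies, the replicates overlapped in 19 of the 33 pairs of neighbours, so many neighbours did not differ beyond their spread. NDUFA4, NDUFA1 and NDUFA11 were each separated from the nearest neighbour by all replicates. NDUFS7 and NDUFS8 were also separated from each other, with 0.149 as the highest value of NDUFS7 and 0.154 as the lowest of NDUFS8.

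The other nuclear subunits of oxidative phosphorylation were also mostly above the median of all genes. All 4 genes of complex II (median 0.901, from SDHA with 0.580 to SDHC with 2.63), all 6 listed genes of complex III (median 1.19, from UQCRC1 with 0.468 to UQCRB with 15.6) and all 9 listed genes of complex IV (median 1.77, from COX4I1 with 0.485 to COX7B with 36.5) were called higher. Of the 14 genes of complex V, 13 were higher and 1, ATP5G1 with 0.236, was lower, and ATP5L was the highest with 12.3 (median 1.51). The assembly factors of complex I, which help to build it and are not part of it, had a median of 0.297, with 6 higher, 8 lower and 1 not called of 15, which is near the background of 44.7% higher and 44.6% lower. They ran from ECSIT with 0.0595 to NDUFAF4 with 7.35. These lists were not tested against each other.

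The occupancy table gives RPFs at each codon divided by the abundance of the mRNA, with the replicates combined, so that its values carry no replicate error. Within a transcript the low values are whole multiples of the worth of a single read in each replicate, which allows the reads to be counted. The CDSs of the 36 complex I transcripts held 400388 in-frame reads, from 2636 in NDUFA2 to 42980 in NDUFS5, of which 87.0% are estimates from values too large to resolve exactly. The worth of a read also falls with mRNA abundance, and from it a relative mRNA level per length was obtained, with the median transcript at 1. The intervals of 5′UTR shares given below are exact 95% intervals and cover counting error only.

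All 36 mRNAs were more abundant than the median transcript. Their median relative level was 8.39, from 1.26 for NDUFA5, a matrix arm subunit, to 30.9 for NDUFS5. The mean occupancy per codon of the CDS had a median of 0.0772 against 0.0450 over all transcripts, and 30 of 36 were above the latter. In complexes II, III, IV and V the median occupancies were 0.0738, 0.0642, 0.0863 and 0.0743. Their median mRNA levels were 5.27, 7.42, 20.6 and 13.4. The highest occupancies in complex I were those of NDUFA4 (0.674), NDUFA5 (0.507) and NDUFB6 (0.268). Of these, NDUFA4 and NDUFA5 share 58.5% and 51.6% of their CDS with other genes. The lowest occupancies were those of NDUFS7 (0.0166), NDUFB7 (0.0227) and NDUFA11 (0.0229). Of the 7 core subunits, 4 were above the median of all transcripts. NDUFS1, the large iron-sulfur subunit, had 0.0666, NDUFV2 0.0598, NDUFS3 0.0537, NDUFV1 0.0308 and NDUFS8 0.0236. NDUFS7, NDUFS8 and NDUFA11 were low in both tables, which come from the same libraries and are not independent. NDUFB7, NDUFB8 and NDUFV1 were also below the median occupancy of all transcripts but were not called lower in translational efficiency. NDUFB2, which was called lower, had an occupancy of 0.0507, above that median.

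mRNA level and occupancy ran against each other within the complex. Across the 36 transcripts Spearman's rho between relative mRNA level and occupancy was -0.525 (Pearson's r -0.517 on the log2 scale), while over all transcripts rho was 0.119. Both quantities contain the same mRNA abundance, on opposite sides of the ratio, so an error in it moves them apart, and the coefficients are given as descriptions. NDUFA5 and NDUFA10 had the lowest mRNA levels (1.26 and 1.55) and occupancies of 0.507 and 0.167. NDUFS8 and NDUFA11 had levels of 15.3 and 16.7 and occupancies of 0.0236 and 0.0229. NDUFS5 was high in both, at 30.9 and 0.142. In reads per codon, which reflect the product of the 2 quantities, the complex I transcripts had a median of 59.1 against 3.90 over all transcripts, and ranged 32.4-fold, from 12.4 for NDUFS7 to 402 for NDUFS5. The standard deviation on the log2 scale was 1.20 for occupancy, 1.07 for mRNA level and 1.12 for reads per codon, against 1.38, 2.04 and 2.56 over all transcripts.

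**Figure D2:**
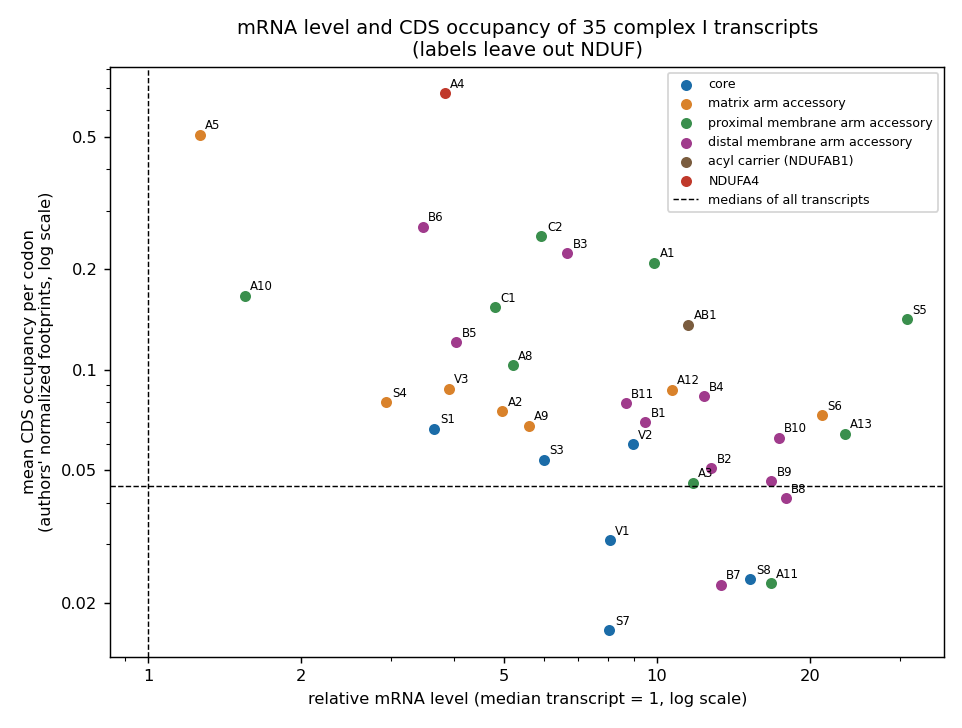
Mean CDS occupancy per codon against relative mRNA level (both on log axes, 3 replicates combined) of 35 complex I transcripts, coloured by position in the complex. All points lie to the right of the vertical dashed line, the median mRNA level of all transcripts, and NDUFA5 and NDUFS7 mark the upper left and the bottom, with occupancies of 0.507 and 0.0166.

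The translational efficiency and the occupancy both compare RPFs with total RNA. The occupancy was divided by TPM, and the formula of the translational efficiency is not known. Spearman's rho between them was 0.693 over 33 complex I genes and 0.688 over all 6912 genes in both tables. In 5 complex I genes the translational efficiency stood more than 2 on the log2 scale above what their occupancy and the median ratio of all genes would give, which was so in 4.05% of all genes. They were NDUFA1 (3.17), NDUFA9 (3.16), NDUFS6 (2.92), NDUFA4 (2.79) and NDUFV3 (2.48). In the opposite direction NDUFB2 (-0.90) and NDUFA10 (-0.84) were the most extreme. Of the 5, NDUFA4 shared 58.5% of its CDS with other genes, NDUFA9 shared 3.44% and 3 shared 0.0%. The other complex I genes with over 50% of shared sequence were NDUFV2 (52.2%, with the pseudogene NDUFV2P1) and NDUFA5 (51.6%, with 10 genes). The part of shared sequence in these values was not tested further.

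**Figure D3:**
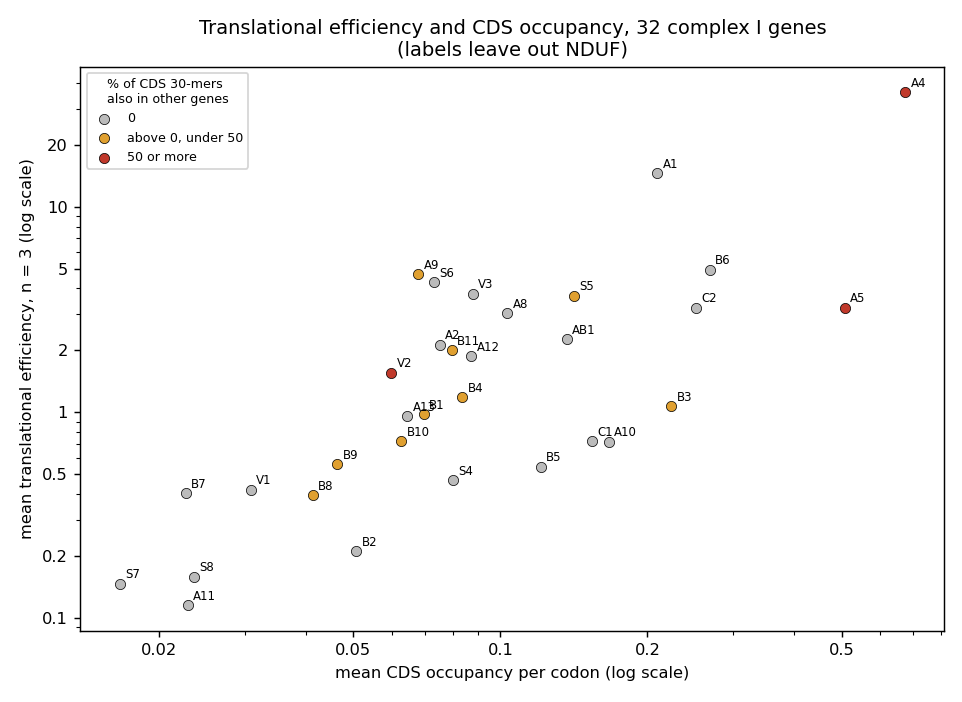
Mean translational efficiency (n = 3) against mean CDS occupancy per codon (both on log axes) of 32 complex I genes, coloured by the percentage of CDS stretches of 30 nt that occur in other genes. NDUFS7, NDUFS8 and NDUFA11 lie at the lower left and NDUFA4 at the upper right, with 0.674 and 36.0.

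In some mRNAs the reads began well inside the CDS of the table. NDUFB1, a small membrane subunit, had a CDS of 106 codons in the table. Codons 1 to 47 held 26 reads and codons 48 to 106 held 6405. The reads began at an in-frame AUG at codon 48, which had 115 reads itself and is followed by a CDS of 58 codons with that AUG, the stop codon not counted. The mean occupancy was 0.0697 over the table's CDS and 0.125 from codon 48. In NDUFS1, listed with 742 codons, codons 1 to 16 held 0 of 16582 reads, which allows a share of up to 0.0181% (3 reads of the total), and codon 17 held 753. The first in-frame AUG within the CDS is codon 15, from which 727 codons remain without the stop. The annotated and the internal AUG of both genes are shown from 5′ to 3′ with the AUG in capitals. All lie on the minus strand of GRCh37, those of NDUFB1 at chr14:92588107-92588133 (exon 1 of 3) and across the junction within chr14:92583967-92587992, those of NDUFS1 at chr2:207023843-207023869 (exon 1 of 19) and across the junction within chr2:207018388-207023827.
NDUFB1 annotated start: ggaaaaagtagtATGatttgctggcgt
NDUFB1 codon 48: gctgcagctatcATGgtgaacttactt
NDUFS1 annotated start: gcagaaaagaagATGaggatcaggggg
NDUFS1 codon 15: tcacgaatcaatATGttaaggatacct
In both genes the window of the internal AUG crosses the junction between exons 1 and 2.

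Few reads over a first stretch were also seen in other mRNAs, with or without an in-frame AUG close before the reads. NDUFV2 had 6 reads at codon 1, 0 in codons 2 to 16, and 12312 from codon 17 on, although its first in-frame AUG inside the CDS is codon 30. NDUFC1, a subunit of the proximal membrane arm, had 44 reads in codons 1 to 23 and 5176 from codon 24, with no other in-frame AUG before that point. NDUFAB1 has its first internal AUG at codon 25 and had 200 reads before it, with 212 reads in codons 1 to 27 and 22424 from codon 28. The codon where reads set in was taken as the first by which 1% of the reads of the CDS had been counted. It had a median of 4.5 in complex I and 11.0 over all transcripts. It was at or before codon 5 in 21 of 36 and in 34.4% of all. By its definition this codon tends to come earlier in a short CDS, and those of complex I are shorter (median 143.5 codons against 448). The comparison was not corrected for length. Low reads over the first codons were common in the whole table. The mean occupancy of the first 25 codons, relative to that of the CDS, had a median of 0.493 in complex I and 0.576 in all transcripts, and it was below 0.5 in 18 of 36 and in 44.9% of all. Across transcripts the ratio fell with the GC content of the first 25 codons, with Spearman's rho of -0.539 over 36 complex I transcripts and -0.484 over 9137. These measures were added after the profiles had been seen.

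**Figure D4:**
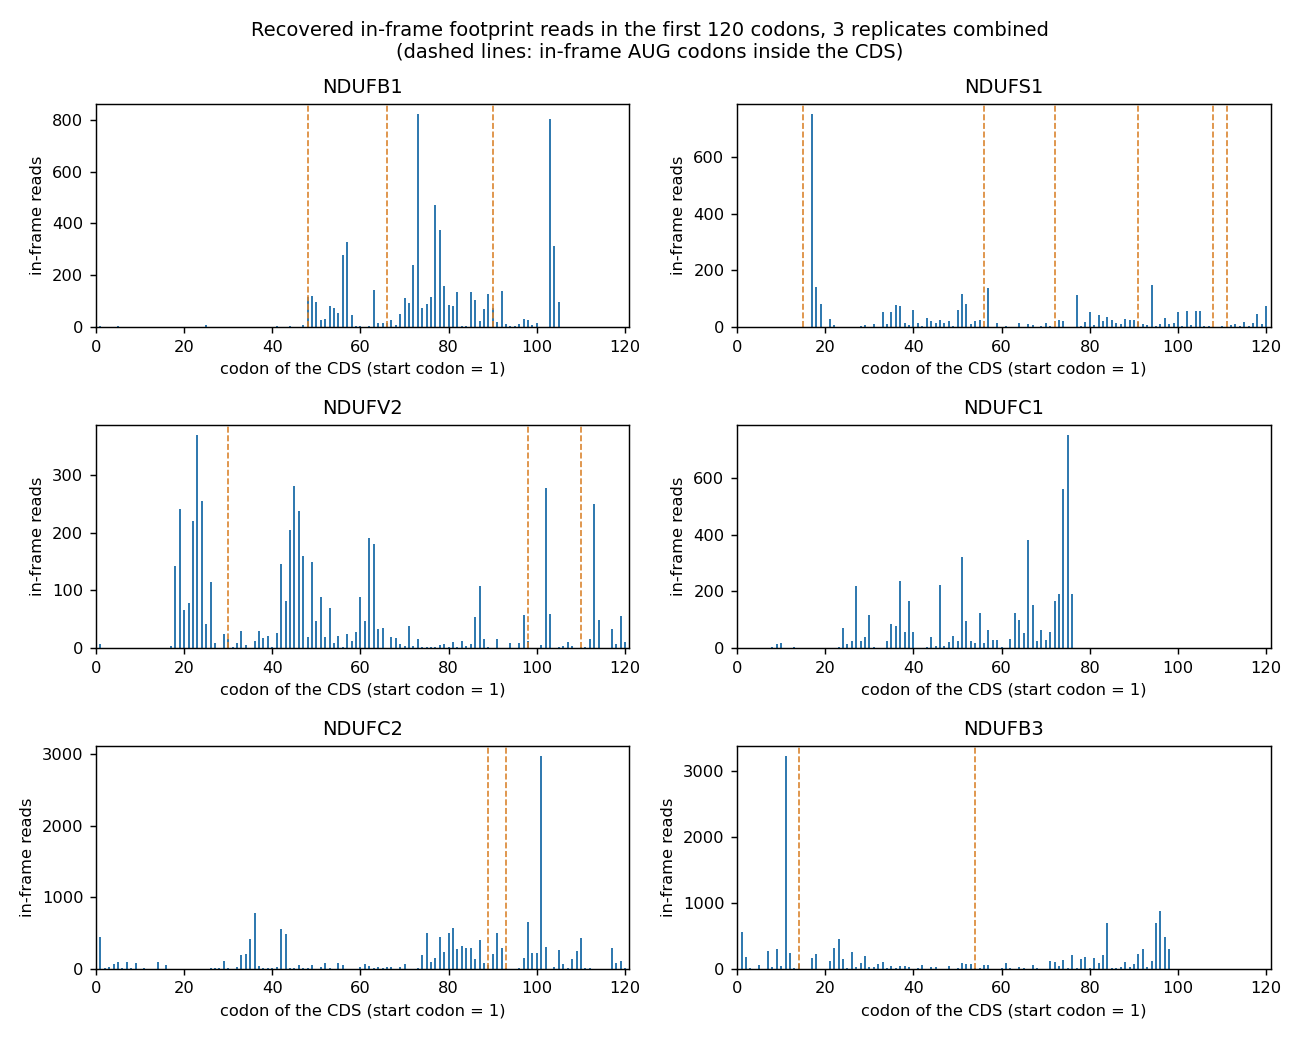
Recovered in-frame reads at each of the first 120 codons (3 replicates combined) of NDUFB1, NDUFS1, NDUFV2, NDUFC1, NDUFC2 and NDUFB3, with in-frame AUG codons inside the CDS as dashed lines. Reads of NDUFB1 begin at the AUG at codon 48 and those of NDUFS1 at codon 17, shortly after the AUG at codon 15, and NDUFC2 and NDUFB3 each show a tall codon at 101 and 11.

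To describe the distribution along the CDS, the mean occupancy before the midpoint was divided by that after it. The median log2 ratio was -0.10 in complex I and 0.04 over all transcripts, and 19 of 36 were below 0, against 47.7% of all. The most front-loaded were NDUFA13 (1.37), NDUFA11 (0.85) and NDUFV1 (0.67). The most back-loaded were NDUFB1 (-3.57), NDUFAB1 (-2.46) and NDUFC1 (-1.95). Counted from codon 48, the ratio of NDUFB1 was 0.11. Without the first 15 and the last 5 codons the sign changed in 5 transcripts and the median was 0.11, so no direction is given for the complex as a whole.

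**Figure D5:**
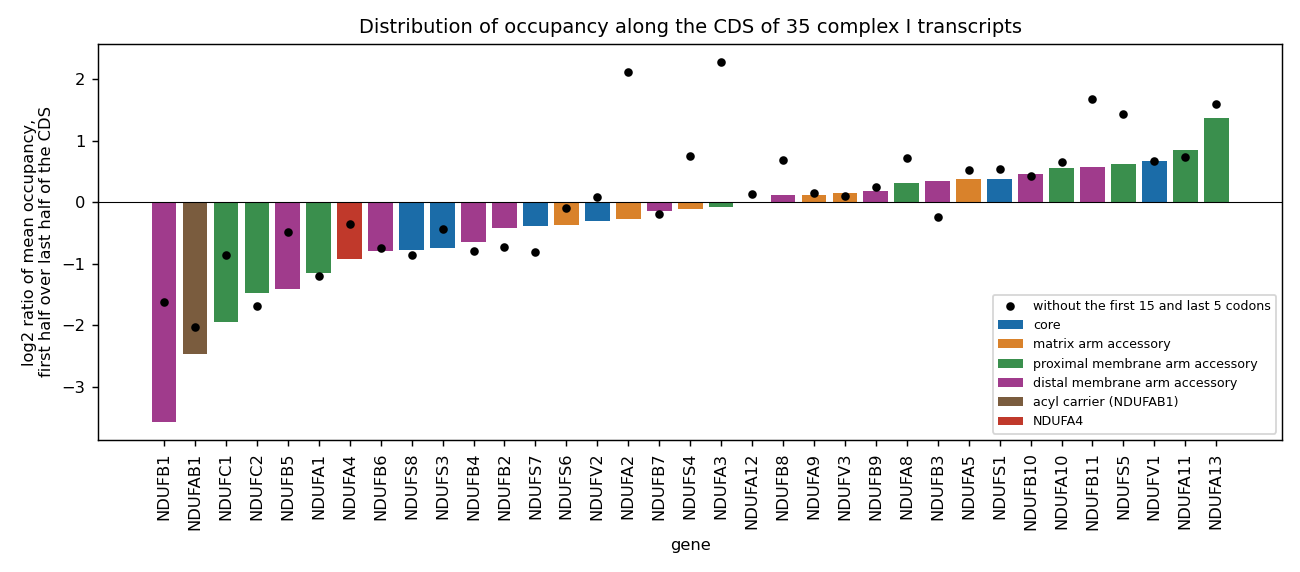
Log2 ratio of the mean occupancy before over after the midpoint of the CDS for 35 complex I transcripts (bars, coloured by position in the complex) and the same without the first 15 and last 5 codons (black points). Bars run from -3.57 for NDUFB1 to 1.37 for NDUFA13, and 19 of 35 are below 0.

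Single codons took large shares of the occupancy of some mRNAs. A codon with over 10% of the CDS occupancy was found in 12 of 36 complex I transcripts and in 15.1% of all transcripts, whose CDSs are longer (median 448 codons against 143.5), so a larger share per codon is built into the short mRNAs. The highest single values were 6.52 at codon 50 of NDUFA5 (12.6% of its CDS occupancy, 754 reads), 5.47 at codon 101 of NDUFC2 (18.1%, 2973 reads) and 5.28 at codon 11 of NDUFB3 (23.8%, 3224 reads). The table places footprints by a fixed offset, so the codon may be off by a small number of positions. The surroundings of the NDUFC2 codon (within chr11:77781078-77784065, minus strand, across a junction) and of the NDUFB3 codon (chr2:201943624-201943650, plus strand, exon 2 of 3) are shown with the codon in capitals.
NDUFC2 peak: ccagaggattttCCTgaagaagataag
NDUFB3 peak: catgagcatggaCATcataaaatggaa
The NDUFC2 codon encodes proline and the NDUFB3 codon histidine, with other histidine codons close by. For NDUFB3, 35.8% of the CDS also occurs in 2 other genes, and for NDUFA5, 51.6% also occurs in 10 other genes.

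In-frame reads in the 5′UTR were few in complex I. They numbered 2677 in the 36 transcripts, and their share of the reads of 5′UTR and CDS had a median of 0.0647%, against 0.379% over all transcripts. The median share was also low in complex II (0.0455%), complex III (0.0751%) and complex V (0.143%), while it was 0.417% in complex IV. In 9 of the 36 complex I transcripts there were no such reads. This allows shares of up to 0.015% (NDUFA13) to 0.0788% (NDUFS4), again as 3 reads of the total, and 7 of the 9 have 5′UTRs of 8 codons or fewer. Most of the reads came from a single mRNA. NDUFC2 had 1609 (8.92%, interval 8.51 to 9.34), of which 812 were in the last 10 codons before the AUG and 776 in the 10 before these. In the GENCODE transcript there are in-frame stop codons at -11 (TGA), -15 (TAG), -23 (TAG) and -29 (TGA), counted from the start codon. Between them lay 448 reads in codons -14 to -12, 219 in codons -22 to -16 and 12 in codons -28 to -24, and there were 4 reads further upstream. NDUFA2, a matrix arm subunit with a thioredoxin fold, had the highest share, with 336 reads (11.3%, interval 10.2 to 12.5), 330 of them in the last 11 codons and 103 in the last. NDUFA11 had 257 (4.89%, interval 4.32 to 5.51), of which 150 were in the codon next to the AUG. Without the 5 codons next to the AUG, the share was 5.33% for NDUFC2, 6.82% for NDUFA2 and 0.755% for NDUFA11, and the median of the complex I transcripts was 0.0268%. The GENCODE 5′UTRs searched for stop codons are shorter than those of the table, with 20 against 64 codons for NDUFA2, 27 against 98 for NDUFA11 and 39 against 155 for NDUFC2. Those of NDUFA2 and NDUFA11 had no in-frame stop codon. Over the 36 transcripts, 509 of the 5′UTR reads were in the codon next to the AUG and 1290 in the last 5 codons. How many of these belong to ribosomes on the start codon was not tested.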

How the data were processed

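RPFs and total RNA were sequenced from HEK293 lysates (3 libraries of each). Depletion of rRNA is described for the RPFs. By the study's methods, reads were stripped of adapters and PCR duplicates, RPFs of 28 to 30 nt were aligned to the hg19 transcriptome, and the most abundant transcript of each gene was kept. Hisat2 is named there for total RNA, while the submitters' processing notes list cutadapt 1.16, Bowtie 1.1.2, TopHat2 2.1.1 and HTSeq 0.9.1. The sources used here do not say how reads that fit several genes were treated.

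Translational efficiency was deposited as a ratio per gene and replicate, for which the sources used here give no formula. The study's methods state the number of mapped RPFs of each replicate, and no depth of total RNA was found there. Since RPFs and total RNA of a replicate share a lysate, pairing is part of the ratio. Occupancy was deposited per codon from in-frame RPFs only, scaled by the authors to library size and TPM, with the replicates combined. The CDS lists of 31 transcripts, broken over lines, were rejoined.

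The ratio was tested with limma 3.58.1 (R 4.3.3) on log2(value + 0.01) over all 8121 genes, without a filter, with Benjamini-Hochberg adjustment at 0.05; differences on this scale understate the change of low genes. Reads were recovered as sums of whole multiples of up to 3 steps per transcript. This was done for values up to 60 times the smallest step (relative tolerance 1e-08) in 9550 transcripts (99.79%). Larger values were divided by an average of the steps found, and 73.1% of the 68014304 reads are such estimates. Relative mRNA level is the inverse of the steps. Both procedures were tested on simulated data. Transcripts were matched to GENCODE 44 by symbol and CDS length (9137, or 95.5%). The other work was done in Python 3.11.15 (numpy 2.4.6, pandas 2.3.3, scipy 1.17.1, matplotlib).

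The genes, lists and tests were chosen with earlier results of these data known. The rule for named genes takes the core subunits, the 4 highest and 4 lowest in translational efficiency, the 3 highest and 3 lowest in occupancy, the 3 highest in 5′UTR share, 3 at either end of the distribution along the CDS, the 3 highest single codons, and the ends of each other list. Other genes of the complex were named with their values seen. A gene that the rule takes enters the counts but is not reported here, and figures leave it out. Alternatives were another pseudocount, filter or reference, the replicate block, each replicate left out, and other codon ranges.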

Additional observations from a re-analysis of the deposited data

Results flagged for a closer look

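In-frame reads in the 3′UTR stood outside the comparisons of the report. Over the 36 complex I transcripts there were 550 of them, and 12 transcripts had more than the 3 reads that a count of 0 would allow. NDUFA12 had 210 and NDUFA2 had 146, which together are most of the total. For NDUFA12 the table holds an isoform with a CDS of 64 codons, and 175 of the 262 nt of its 3′UTR are coding in another GENCODE isoform. For NDUFA2 the isoform has 77 codons, and 89 of the 334 nt of its 3′UTR are coding elsewhere. The next highest were NDUFC2 with 42, NDUFAB1 with 36 and NDUFA8 with 24, and 15 transcripts had none. NDUFAB1 and NDUFA8 had 0 nt of 3′UTR coding elsewhere. Such overlap stood beside few reads in NDUFA3 (80 of 341 nt, 0 reads) and NDUFA10 (116 of 3746 nt, 1 read). Whether it accounts for the reads was not tested.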

How the results depend on the processing

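The numbers of complex I genes called higher (26) and lower (5) than the median of all genes stayed at 25 or 26 and at 5 with a pseudocount of 0.1 or 0.001, with the replicate block (26 and 5), with each replicate left out in turn, with genes of a mean of at least 0.1 only (25 and 5) and with the mean of all values as the reference (25 and 5), which lies 0.17 above the median on the log2 scale. NDUFS4 was the gene lost under the last 2 settings (limma adjusted p = 0.139 and 0.222). Of the 25 with under 5% of shared sequence, a choice made after seeing the data, 18 were higher and 5 lower, against 40.1% and 48.4% of all 6331 such genes. Against the median of the complex I genes, 15 or 16 were higher and 14 or 15 lower; 1 fewer gene was lower (14) with the replicate block, without replicate 2 and without replicate 3, and NDUFB4 was called without replicate 3 (limma adjusted p = 0.0302) or without NDUFA4 (0.0352). Leaving out a replicate gave medians of translational efficiency from 1.00 to 1.06. The median CDS occupancy was 0.0214 when the median over codons was taken and 0.0806 without the first 15 and last 5 codons. The median 5′UTR share was 0.0268% without the 5 codons next to the AUG, and the median log2 ratio across the midpoint was 0.11 without the first 15 and last 5 codons; the cause was not tested. All 36 transcripts had at least 100 reads. Without NDUFB1 and NDUFS1, left out after seeing the data, the median CDS occupancy was 0.0794, and the median 5′UTR share and the median log2 ratio across the midpoint kept their values.

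The limits are that there is a single condition, that occupancy has no replicate error, that most reads of abundant mRNAs are estimates, and that the table holds 1 isoform per gene.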
